A study of Mus musculus with 18 samples.

Results

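The nuclear genes for subunits of the mitochondrial respiratory chain were followed through polysome gradients of mouse embryonic stem cells (ESCs) with and without Dgcr8. The members were chosen by symbol alone, as rows starting with Ndufa, Ndufb, Ndufc, Ndufs, Ndufv, Uqcr, Cox4 to Cox8 or Atp5, or named Sdha, Sdhb, Sdhc, Sdhd, Cyc1 or Cycs, without assembly factors named Ndufaf and names with -ps. This gave 91 of 51467 genes, of which 83 of the 12851 genes tested passed the filter of 3 CPM (counts scaled to the size of the library) in at least 3 libraries. By complex, the tested members were 36 genes of complex I, 4 of complex II, 9 of complex III, cytochrome c (Cycs), 15 of complex IV, 17 of ATP synthase and 1 processed pseudogene, Cox6c2. Ndufa4 and its paralogue Ndufa4l2 were placed with complex IV. Cox6c2 and Ndufa4l2 passed the filter through libraries of wild type cells alone and stay in the counts and medians over the 83 members. The 8 members not tested were Cox4i2, Cox6a2, Cox7b2, Cox8b and Cox8c and the pseudogenes Ndufa11b, Ndufb4c and Ndufs6b, which reached at most 8 reads in any library.

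Wild type (WT) ESCs were of the V6.5 line, and the Dgcr8 knockout (KO) ESCs were 1 line made earlier, so that genotype and line cannot be told apart. DGCR8 is needed to process primary microRNA transcripts. Both genotypes were grown with LIF, 2 kinase inhibitors and serum, and ribosomes were held in place with cycloheximide (100 ug/ml, 2 minutes) before lysis. For each genotype, 3 sucrose gradients of 10 to 50% were collected as monosomes, low polysomes (2 to 4 ribosomes) and high polysomes (4 or more), and the 3′ ends of polyadenylated RNA were sequenced in these 18 libraries.

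The respiratory chain passes electrons from NADH (complex I) and succinate (complex II) through complex III and the mobile carrier cytochrome c to oxygen at complex IV, and the proton gradient that this builds drives ATP synthase. A few mitochondrially encoded proteins form the hydrophobic core of most complexes. The nuclear genome supplies all other subunits, which range from large catalytic proteins to very small accessory ones, and these are translated on cytosolic ribosomes and imported.

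Library totals were 1151649 to 4984833 counts. The 10 ESC markers summed to 3650 to 3930 CPM in WT and 4520 to 4780 CPM in KO monosomes. In low polysomes the sums were 4150 to 4410 against 4190 to 4590 CPM, and in high polysomes 5010 to 5390 against 3490 to 3800 CPM. All 10 had a lower mean in KO than in WT high polysomes, among them Dppa3 at 4.34 against 60.2 CPM. The 8 fibroblast (feeder) markers summed to 4.92 to 28.6 CPM, and Dcn was at 0 in the group means other than KO low polysomes. The 8 primitive endoderm markers summed to 34.6 to 56.2 CPM in WT and 13.7 to 23.6 CPM in KO high polysomes, and to 33.5 to 36.6 against 9.37 to 20.6 CPM in low polysomes, and the 5 formative epiblast markers to 100 to 154 and 87.7 to 130 CPM. The part of these differences in the results was not tested. Dgcr8 kept reads in the KO libraries, with 47.3, 52.0 and 51.3 CPM in monosomes against 76.3, 68.4 and 79.6 CPM in WT. Its reads lie at the 3′ end, and where its deletion lies was not given in the sources used here, so this level does not check the label.

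Taken as a share of all reads, the members made up 3.07 to 3.40% of the WT monosome, 4.63 to 4.82% of the WT low polysome and 2.58 to 2.70% of the WT high polysome libraries. In KO cells they made up 3.13 to 3.47% of the monosome libraries, 2.62 to 2.90% of the low polysome and 1.45 to 1.59% of the high polysome libraries. The monosome shares overlapped between genotypes, whereas every KO polysome library lay below every WT library of the same fraction. Because the libraries are bulk lysates scaled to their own totals, fewer cells with a message and fewer messages per cell cannot be told apart.

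The first question was how the members change in translation level, the ratio of high polysome to monosome reads. In limma, 30 of 83 members were lower in KO cells and 1, Ndufs1, was higher. Here and throughout, a call needs more than a 2-fold change (1 on the log2 scale) beside adjusted p below 0.05. Over all genes tested, 8.81% were called lower and 6.29% higher. The median log2 change was -0.83 over the members and 0.01 over all genes, and 68 of the 83 fitted changes were below 0. In 55 members all 3 KO gradients lay below all 3 WT gradients, and in 9 they lay above, against 21.4% and 20.3% of all genes. Without the 18 members that share over 5% of their 3′ end with transcripts of other genes, 21 of 65 were lower and 1 higher, with a median of -0.79. Nothing states that the gradients came from separate cultures, so p-values measure the spread between these gradients, which may be technical.

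Every complex except complex II had members that fell. These were 14 of 36 genes in complex I (median -0.81), 4 of 9 in complex III (-0.91), 7 of 15 in complex IV (-0.96), 4 of 17 in ATP synthase (-0.70) and Cycs, but 0 of 4 in complex II (-0.55). The complex II genes Sdhc and Sdhd, which anchor the complex in the membrane, had changes of -0.86 and -0.77, under the fold threshold.

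**Figure D1:**
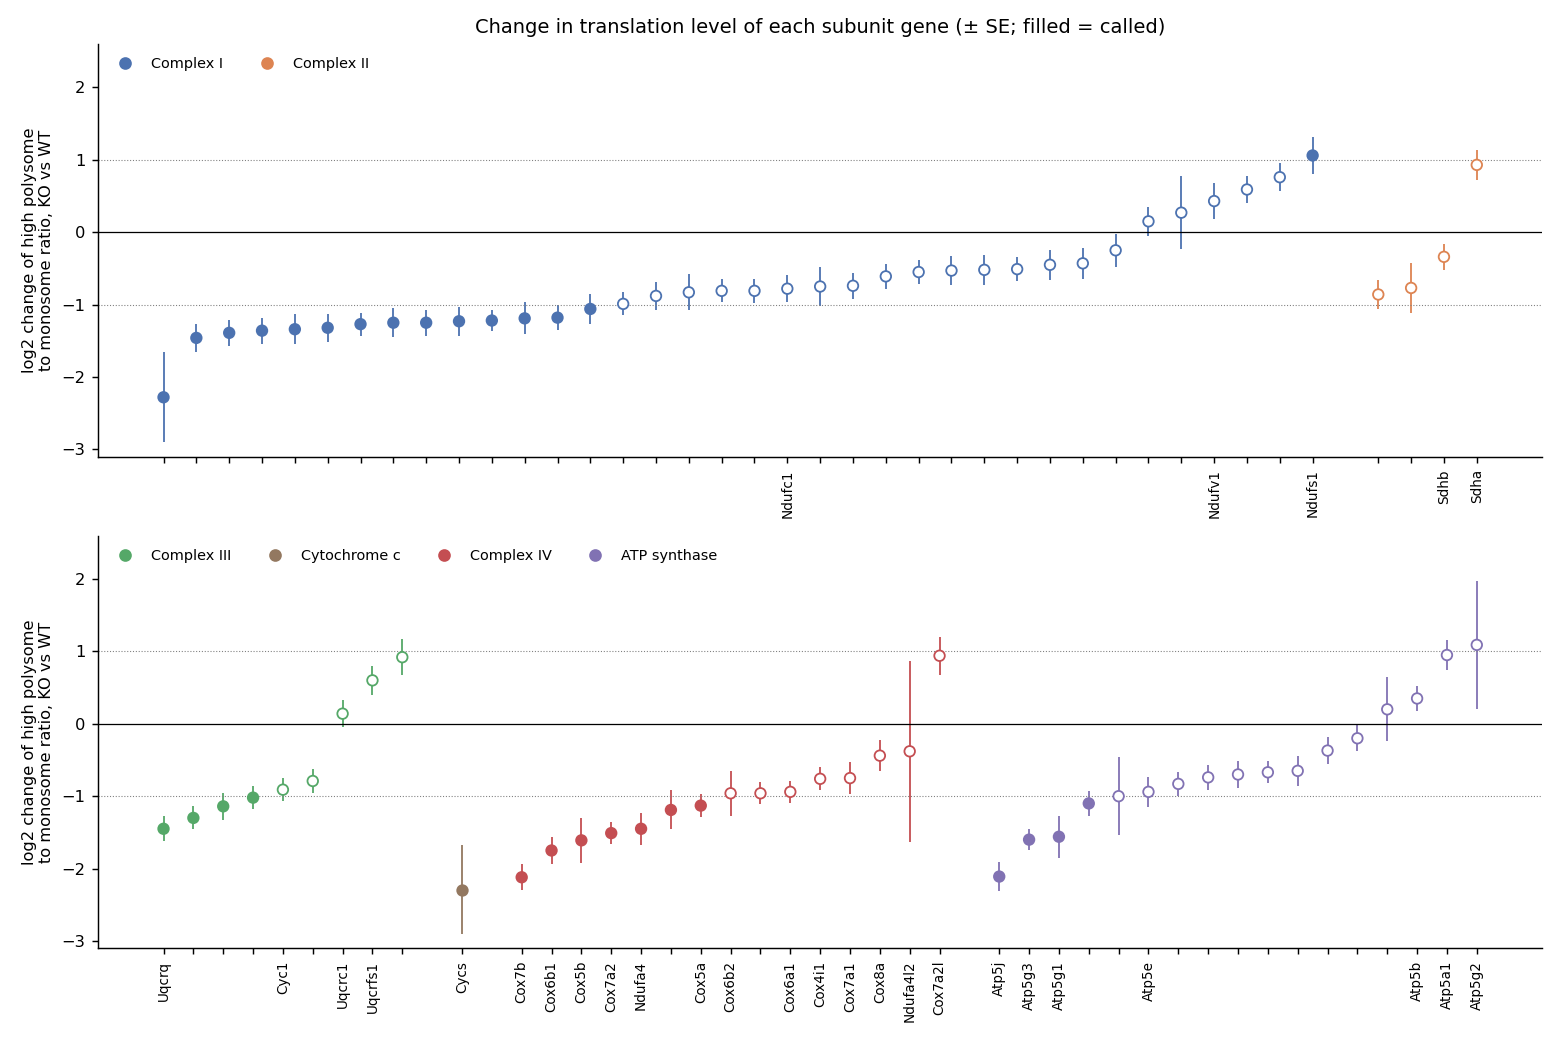
Change in translation level of the 82 tested subunit genes other than the pseudogene, as the log2 change of the high polysome to monosome ratio in KO against WT cells (y axis), sorted within each complex and with only the genes of the naming rule labelled. Points are limma estimates, bars are ± SE, filled points passed the adjusted p of 0.05 and the fold threshold (dotted lines), and 15 of the 82 genes lie above 0, 6 of them in complex I and 4 in ATP synthase.

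The largest falls among members with a mean count of 50 or more were in complex IV and ATP synthase. Cox7b, a small membrane subunit of complex IV (chromosome X, 106015700 to 106022450 on GRCm38, plus strand), had log2 high polysome to monosome ratios of -0.45, -0.48 and -0.39 in the WT gradients and -2.53, -2.61 and -2.53 in the KO gradients. Its change was -2.12 (SE 0.18, adjusted p = 1.84e-11), a 4.33-fold fall. In high polysomes its level was 287, 285 and 262 CPM in WT and 53.9, 41.6 and 54.2 CPM in KO cells, with no overlap, while in monosomes it was 392, 398 and 345 against 315, 257 and 316 CPM.

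Atp5j encodes coupling factor 6 of the ATP synthase stalk. In WT cells it had 104, 98.1 and 99.0 CPM in monosomes and 218, 200 and 181 CPM in high polysomes, a log2 ratio of 0.98 that was just under the fold threshold. In KO cells the order was inverted, with 168, 134 and 152 CPM in monosomes and 86.0, 67.4 and 57.7 CPM in high polysomes. The change was -2.11 (SE 0.20, adjusted p = 2.23e-10), and 15.1% of the 3′ windows of Atp5j occur in other genes' transcripts.

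Atp5g1, Atp5g2 and Atp5g3 encode the same mature c subunit of the ATP synthase rotor from different precursors. Atp5g3 was the most read of them, with 2750, 2840 and 2830 CPM in WT high polysomes and 971, 887 and 857 CPM in KO high polysomes. Its monosome levels overlapped between WT (1440, 1570 and 1210 CPM) and KO cells (1440, 1180 and 1520 CPM). Its translation level fell by 1.60 on the log2 scale (SE 0.15, adjusted p = 3.64e-10). Atp5g1 fell by 1.56 (SE 0.29, adjusted p = 6.6e-05), with 59.3, 44.0 and 47.1 CPM in WT and 18.2, 12.4 and 13.3 CPM in KO high polysomes. Atp5g2 had 120 reads in all, and all 3′ windows of its transcript occur in other genes, so its change of 1.09 (SE 0.88, adjusted p = 0.381) is uncertain.

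Cox6b1, which faces the intermembrane space in complex IV, fell by 1.75 (SE 0.19, adjusted p = 4.4e-09). It had 1160, 1130 and 892 CPM in WT and 1730, 1300 and 1700 CPM in KO monosomes, so that all KO libraries were above all WT libraries there, and in high polysomes it had 586, 644 and 513 against 275, 273 and 219 CPM, so that all were below. Cox5b, a nuclear subunit on the matrix side, fell by 1.61 (SE 0.31, adjusted p = 1.18e-04), with 34.7, 33.9 and 29.0 CPM in WT and 12.6, 11.8 and 11.3 CPM in KO high polysomes.

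**Figure D2:**
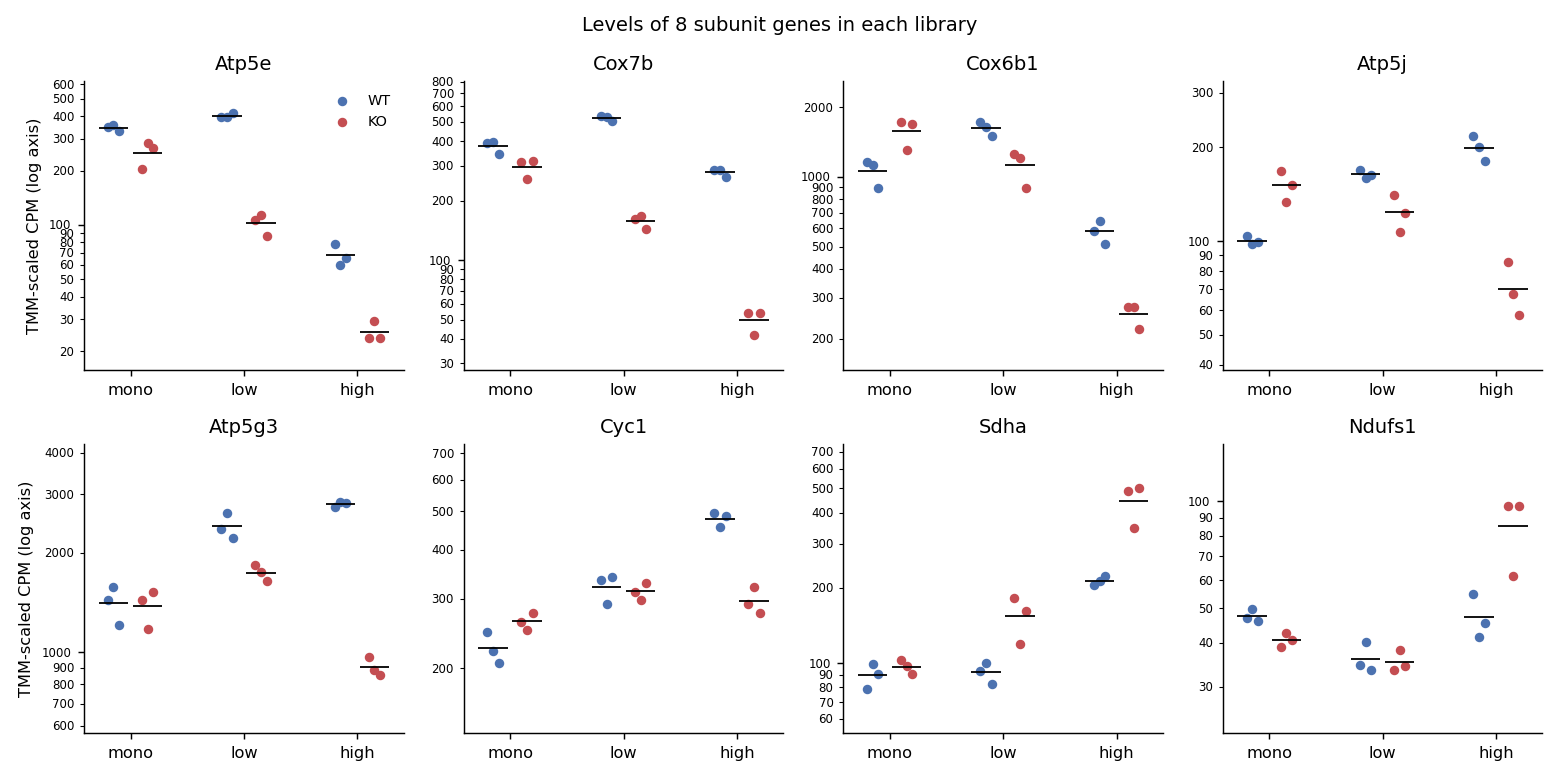
Levels of 8 subunit genes as TMM-scaled CPM (log axis, a different range for each gene) in the monosome, low polysome and high polysome libraries, with 1 point per library and a line at the mean of 3. In KO high polysomes the 6 genes from Atp5e to Cyc1 lie below all WT high polysome libraries and Sdha and Ndufs1 lie above them.

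The lead subunits with long coding sequences (CDS) had changes above 0. Ndufs1, the largest iron-sulphur subunit of complex I (chromosome 1, 63143596 to 63176833, minus strand), had log2 ratios of 0.23, -0.26 and -0.01 in WT and 1.30, 0.53 and 1.23 in KO gradients. Its change was 1.06 (SE 0.25, adjusted p = 0.00102), and without WT replicate 2, KO replicate 1 or KO replicate 3 it was 0.90, 0.93 or 0.94, under the fold threshold, as it was with total counts in place of TMM scaling (0.73). Sdha, the flavoprotein of complex II, had ratios of 1.37, 1.09 and 1.30 in WT and 2.23, 1.83 and 2.46 in KO gradients, a change of 0.93 (SE 0.21, adjusted p = 9.36e-04). Atp5a1, the alpha subunit of ATP synthase, had a change of 0.95 (SE 0.21, adjusted p = 5.42e-04), and its KO gradients at 2.02, 1.84 and 1.77 were all above the WT gradients at 0.98, 0.85 and 0.97. The changes of Atp5b (beta subunit, 0.35), Ndufv1 (the NADH-binding subunit, 0.43) and Uqcrc1 (a core protein of complex III, 0.14) had adjusted p = 0.121, 0.205 and 0.637, and Uqcrc1 was at -0.19 when total counts replaced TMM scaling.

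The other lead subunits apart from Uqcrfs1 and Cycs, described further on, had changes below 0. Cox5a, a matrix-side subunit of complex IV, fell by 1.13 (SE 0.16, adjusted p = 6.52e-07), with 1700, 1600 and 1500 CPM in WT and 710, 689 and 637 CPM in KO high polysomes. Cyc1, the cytochrome c1 of complex III, had a change of -0.91 (SE 0.16, adjusted p = 2.81e-05) and Cox4i1, the largest nuclear subunit of complex IV, one of -0.76 (SE 0.16, adjusted p = 4.16e-04), both under the fold threshold and without overlap between the gradients of the genotypes. Sdhb, the iron-sulphur subunit of complex II, had a change of -0.34 (SE 0.18, adjusted p = 0.159).

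Cycs encodes the soluble electron carrier between complexes III and IV, which also takes part in apoptosis once released from mitochondria. It was little read, with 345 counts in all, so its values are less precise. Its log2 ratios were 0.85, 0.01 and 2.54 in WT and -0.89, -0.97 and -1.16 in KO gradients, a change of -2.29 (SE 0.62, adjusted p = 0.00465). The call rested on WT replicate 3, whose monosome library was the smallest, since without it the change was -1.60 with adjusted p = 0.0614.

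The changes followed the length of the coding sequence across members. The median CDS was 420 nt over the 82 tested protein-coding members and 1365 nt over all protein-coding genes tested. The 30 members that fell had a CDS of 171 to 675 nt. In classes of length, chosen with the values known, 9 of 21 members under 300 nt fell (median -0.96), 20 of 39 from 300 to under 600 nt (-1.10), 1 of 13 from 600 to under 1200 nt (-0.34) and 0 of 9 from 1200 nt on (0.59). Other protein-coding genes of the same classes had medians of -0.92, -0.88, -0.31 and 0.32, and 39.1%, 36.1%, 10.8% and 1.91% of them were called lower. Spearman's rho between CDS length and change over the 82 members was 0.58, a description across genes that share the same libraries. The corresponding rho was 0.06 for 3′ UTR length and 0.05 for the GC content of the CDS.

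A lowess trend of the change on CDS length, drawn over all protein-coding genes tested, was subtracted to see what was left for the members. The median of these 82 members moved from -0.82 to 0.05, and 36 of 82 were below the trend. By length the median distance was 0.15 under 300 nt, -0.18 from 300 to under 600 nt and 0.20 from 600 nt on. The SD of the members' median ratio between gradients was 0.0523 in WT and 0.244 in KO cells. Single members lay farther from the trend, with Cycs, Ndufs5 and Atp5j at -1.28, -1.27 and -1.11 and Atp5g2, Cox7a2l and Uqcrfs1 at 1.98, 1.93 and 0.98 log2 units from it. Of these, Ndufs5, an accessory subunit of complex I chosen here after its values were seen, had 331 counts and shared 54.6% of its 3′ windows with other genes.

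**Figure D3:**
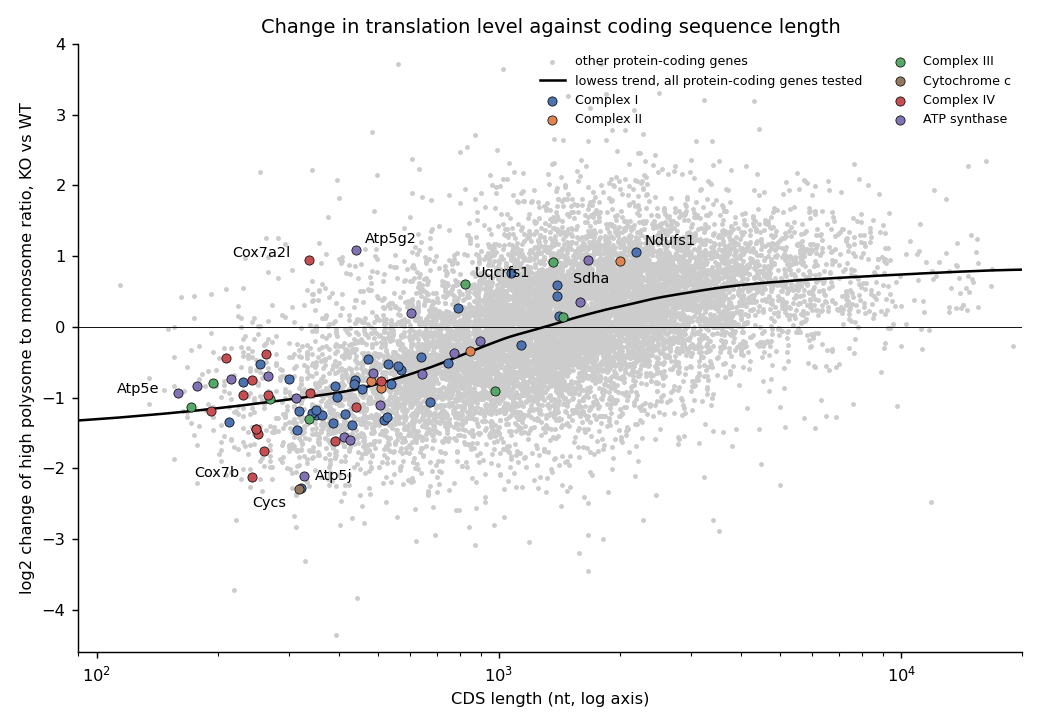
Log2 change of the high polysome to monosome ratio in KO against WT cells (y axis) against CDS length in nt (log x axis), with protein-coding genes tested in grey, subunit genes coloured by complex and the lowess trend as a line. Subunit genes lie on both sides of the trend (36 of 82 below it), with Cycs and Atp5j below it and Cox7a2l and Atp5g2 above it.

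The level in each genotype was also ordered by length, with medians of the members that rose from each class to the next. The change between genotypes, in contrast, was lowest from 300 to under 600 nt. In WT cells 26 members were called lower and 10 higher in high polysomes than in monosomes, against 19.3% and 10.7% of all genes. In KO cells 48 were lower and 11 higher, against 25.5% and 17.5%. The median ratio of members under 300 nt was -2.01 in WT and -3.05 in KO cells, and that of members from 1200 nt on was 0.93 in WT and 1.88 in KO cells. Between 300 and 600 nt it was -0.12 in WT, and 6 of 39 members were lower, but -1.27 in KO cells, where 26 were lower. Other protein-coding genes of this length had medians of -0.35 in WT (29.2% lower) and -1.32 in KO cells (58.2%). Other genes under 300 nt were at -1.56 and -2.6, and those from 1200 nt on at 0.09 and 0.37. The spread between short and long genes was thus wider in KO cells among members and among other genes. Spearman's rho with CDS length over the members ranged from 0.70 to 0.73 over WT gradients and from 0.87 to 0.91 over KO gradients. Complex IV, whose nuclear subunits are all short, had the lowest medians, with -1.14 in WT and -2.62 in KO cells.

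One long member stood apart in this order. Ndufv3, an accessory subunit of complex I named here after its values were seen, had a CDS of 1407 nt but a ratio of -1.59 in WT and -1.44 in KO cells. The annotation also gives it protein-coding transcripts with a CDS of 315 and 261 nt, and reads at the 3′ end do not tell these apart.

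The ratio was then split into its steps along the gradient. For the low polysome to monosome ratio, 23 members fell and 4 rose, against 3.81% and 1.23% of all genes, with a median of -0.64. Of members under 300 nt, 15 of 21 fell at this step (median -1.28), whereas 8 of 39 fell between 300 and 600 nt (-0.69). Of other protein-coding genes in these classes, 53.2% and 14.8% fell, with medians of -1.12 and -0.53. Ndufc1 and Uqcr11, small accessory subunits of complexes I and III, and Atp5e, the epsilon subunit of ATP synthase with a CDS of 159 nt, had changes of -1.61, -1.56 and -1.52 (SE 0.17, 0.17 and 0.18). Uqcr11 was chosen after its values were seen. The 4 that rose were Uqcrfs1 (1.54), Uqcrc2 (1.11), Ndufa10 (1.09) and Atp5a1 (1.06).

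For the high to low polysome ratio, 3 members fell and 1 rose, against 2.89% and 2.29% of all genes, a share close to that background. These were Atp5g3 (-1.17), Atp5j (-1.12) and Ndufc2 (-1.02), and Ndufv3 (1.07), of which the last pair were named after their values were seen. The count was 7 without WT replicate 3 and 7 without KO replicate 1. Members under 300 nt had a median of 0.28 at this step and those of 300 to under 600 nt one of -0.52, against 0.15 and -0.40 in other protein-coding genes of these lengths.

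**Figure D4:**
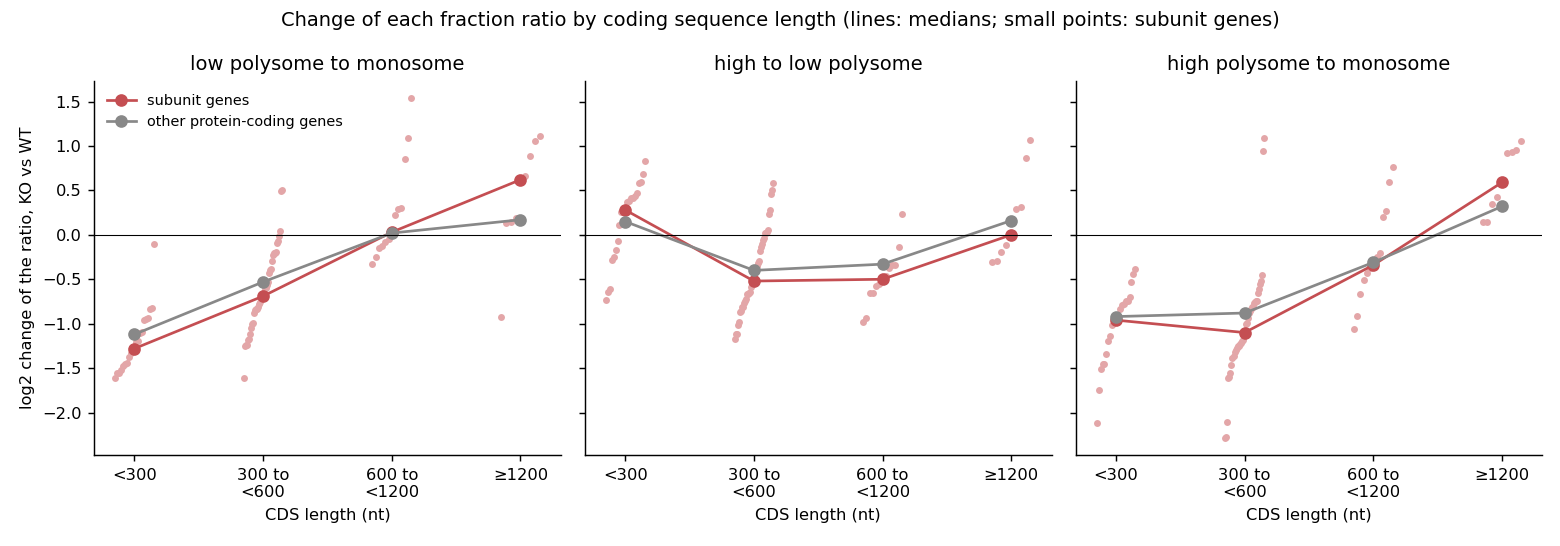
Log2 change of the low polysome to monosome, high to low polysome and high polysome to monosome ratios in KO against WT cells (y axis) in 4 classes of CDS length in nt (x axis). Small points are subunit genes and the lines join the class medians of subunit genes (red) and other protein-coding genes (grey). For the low polysome to monosome ratio these medians were -1.28 and -1.12 under 300 nt and 0.62 and 0.17 from 1200 nt on. For the high polysome to monosome ratio they were 0.59 and 0.32 from 1200 nt on.

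The next question was how the members differ between genotypes within a fraction. In monosomes 3 members were lower and 0 higher in KO cells, against 9.63% and 8.43% of all genes, and the median change was -0.12. Of these 3, Ndufa4l2 passed the filter through WT libraries alone, so its call is not support for a difference. edgeR and DESeq2 also called 3 lower and 0 higher, and at an unadjusted p under 0.05 there were 28 lower and 19 higher, against 24.3% and 21.2% of all genes. In low polysomes 26 were lower and 0 higher, against 13.6% and 11.4%, and in high polysomes 40 were lower and 2 higher, against 17.9% and 15.1%. The medians were -0.55 and -0.97. Ndufa4l2 is among the lower members in both fractions. Of members with a CDS under 300 nt, 85.7% were lower in low and 85.7% in high polysomes. The shares of other protein-coding genes of this length were 66.4% and 58.2%. From 300 to under 600 nt they were 20.5% and 53.8% of members, against 31.8% and 48.3% of other genes. In low polysomes, 56 members were lower and 11 higher at an unadjusted p under 0.05, against 28.7% and 28.5% of all genes.

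Among members with a mean count of 50 or more, those that fell most in low polysomes were Ndufc1, Cox6b2, Uqcrq and Atp5e. Ndufc1 had 619, 680 and 683 CPM in WT and 102, 136 and 119 CPM in KO libraries, a change of -2.48 (SE 0.12, adjusted p = 3.39e-20). Uqcrq, a small subunit of complex III, had 778, 948 and 879 CPM in WT and 212, 200 and 192 CPM in KO libraries, a change of -2.11 (SE 0.11, adjusted p = 5.04e-19). Atp5e had 394, 398 and 418 against 106, 114 and 87.0 CPM, a change of -1.99 (SE 0.13, adjusted p = 1.15e-16). In all of these the genotypes were far apart compared with the spread of 3 libraries.

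In high polysomes, by the same count, they were Cox7b (-2.48), Uqcrq (-2.28), Cox6b2 (-1.80) and Atp5g1 (-1.78). Uqcrq had 262, 282 and 261 CPM in WT and 49.9, 60.3 and 55.4 CPM in KO libraries. The pair that rose were Ndufv1, with 190, 141 and 205 CPM in WT and 394, 337 and 396 CPM in KO libraries (log2 change 1.08, SE 0.15, adjusted p = 3.85e-08), and Sdha, with 206, 213 and 223 against 489, 347 and 503 CPM (1.04, SE 0.13, adjusted p = 1.03e-08). With total counts in place of TMM scaling, 0 members were higher and 50 lower in high polysomes.

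Cox7a2l was called lower in all 3 fractions, as was Ndufa4l2, whose reads are few. Cox7a2l, which takes part in joining complexes III and IV into supercomplexes, had 171, 187 and 213 CPM in WT and 39.5, 47.0 and 52.1 CPM in KO monosomes. Its changes were -2.02 in monosomes (SE 0.16, adjusted p = 2.15e-13), -1.53 in low polysomes (SE 0.17) and -1.08 in high polysomes (SE 0.20). Its CDS is 336 nt, but its log2 ratios were higher in KO gradients (-1.46, -1.86 and -1.43) than in WT gradients (-2.16, -2.61 and -2.82), with a change of 0.94 (SE 0.26, adjusted p = 0.00476) that stayed under the fold threshold.

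Ndufa4l2, a paralogue of Ndufa4 known as a target of the hypoxia response, was near the limit of detection. Its reads were 2, 12 and 2 in WT and 0, 1 and 0 in KO monosomes, 6, 23 and 21 against 2, 0 and 2 in low polysomes, and 2, 10 and 5 against 0, 0 and 0 in high polysomes. Per library total the summed WT reads were 24.7 times the KO reads in monosomes (95% exact interval 3.83 to 1030) and 13.3 times in low polysomes (4.88 to 50.7). In high polysomes they were at least 8.27-fold higher, against a floor of 3 counts over the group. These intervals cover counting error only. Without WT replicate 2 the ratio in monosomes was 9.81 and the bound in high polysomes 5.0. The gene passed the filter on low counts through WT libraries alone, so its calls are not support for a difference. Ndufa4 itself had 159, 128 and 118 CPM in WT and 254, 196 and 226 CPM in KO monosomes (log2 change 0.73, adjusted p = 2.61e-04), under the fold threshold, and its translation level fell by 1.45 (SE 0.22).

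The third member lower in monosomes was Uqcrfs1, the Rieske iron-sulphur protein of complex III. It had 177, 183 and 219 CPM in WT and 83.9, 63.7 and 78.7 CPM in KO monosomes (log2 change -1.36, SE 0.15, adjusted p = 2.06e-09). In low polysomes the genotypes overlapped, at 69.1, 71.7 and 88.5 against 101, 69.5 and 90.4 CPM, and in high polysomes it had 239, 250 and 252 against 176, 132 and 133 CPM (-0.77, SE 0.13). Its change in translation level was 0.60 (SE 0.20, adjusted p = 0.0232), under the fold threshold.

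Several subunits of complex IV have paralogues that are known from other tissues. Cox6a1 and Cox7a2 are the widely used forms and Cox6a2 and Cox7a1 those of heart and muscle, while Cox6b2 is known from testis. Cox6a2 had 7 reads in all libraries, Cox8b 3, Cox8c 32 and Cox4i2 53. Cox7a1 and Cox6b2, in contrast, were read in every library. Cox7a1 had 238, 224 and 240 CPM in WT and 139, 138 and 166 CPM in KO monosomes. Its change was -0.67 in monosomes, then -1.86 and -1.42 in low and high polysomes (SE 0.13, 0.12 and 0.18), and the last pair were called. Cox7a2 had changes of -0.09, -1.53 and -1.60 in the same order, of which the polysome values were called, and its translation level fell by 1.51 (SE 0.15, adjusted p = 1.03e-09). The change in translation level of Cox7a1 was -0.75 (SE 0.22, adjusted p = 0.0075), and the difference between the paralogues was not tested.

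Cox6b2 had 125, 153 and 134 CPM in WT and 55.6, 89.3 and 86.6 CPM in KO monosomes, with changes of -0.84, -2.39 and -1.80 in monosomes, low and then high polysomes, of which the polysome values were called. Cox6a1 had 464, 455 and 446 CPM in WT and 291, 304 and 297 CPM in KO high polysomes, and its change in translation level was -0.94 (SE 0.15, adjusted p = 8.6e-06). Cox8a, the small ubiquitous form, was already low in high polysomes of WT cells, with 135, 141 and 125 CPM against 1440, 1260 and 971 CPM in monosomes. Its translation level had a change of -0.44 (SE 0.21, adjusted p = 0.117), while its level fell in low (-1.56) and high polysomes (-1.17). In monosomes it had 690, 655 and 845 CPM in KO cells, all below WT, a change of -0.74 (SE 0.13, adjusted p = 2.78e-05) under the fold threshold.

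Loss of DGCR8 removes the microRNAs that are most abundant in ESCs, several of which share 1 seed, so the 3′ UTRs of the members were searched for its matches. The microRNAs are shown to give this seed, bases 2 to 8, in capitals. The RefSeq sequences on GRCm38.p6 are at chr7:3218968-3218989 (plus strand), chr7:3220691-3220712 (plus strand) and chr3:127545275-127545297 (plus strand).
mmu-miR-291a-3p: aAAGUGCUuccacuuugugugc
mmu-miR-294-3p: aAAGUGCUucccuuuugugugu
mmu-miR-302b-3p: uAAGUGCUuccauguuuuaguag

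Matches of 7 or 8 bases were found in 5 members, which is 6.02% of those tested, against 18.4% of the protein-coding genes tested. The median 3′ UTR was 160.5 nt in members and 937 nt in all of these genes. The longest match is in Ndufs4, an accessory subunit of complex I, and Cycs holds 3 matches, of which the first is shown, with the matched letters of the transcript in capitals.
Ndufs4, 3′ UTR bases 223 to 230: gaaatcagAGCACTTAgagtttac
Cycs, 3′ UTR bases 1142 to 1148: tcagaggcAGCACTTtgtgacaa

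Members with a match included Ndufs4, Cycs, Atp5g1 and Sdhd. In KO monosomes their log2 changes were 0.61, 1.05, -0.23 and -0.79, none of which was called, and in translation level they were -1.27, -2.29, -1.56 and -0.77, of which the first 3 were called lower. A match is a description of letters and not a site shown to be used.

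Promoters of respiratory genes are known for motifs of NRF1, ETS factors and YY1. RefSeq promoters (GRCm38.p6, 250 bases before to 50 after the start) were matched for 70 members. A gene was counted if any of its promoters held the letters. The NRF1 letters GCATGCGC were in 11 members on either strand (15.7%), against 3.05% of 27025 genes with a promoter. These 27025 were not limited to genes tested here, whereas most of the members were tested, so the sets are unlike. The YY1 letters AAGATGGCG were in 7 (10.0% against 1.64%) and the ETS letters CCGGAAGT in 5 (7.14% against 4.31%), and 22 held any of the 3 (31.4% against 8.47%). The NRF1 letters are nearly their own reverse complement, so both strands can match at once. Windows of 30 bases are shown for 4 members, on the strand of the gene and with the motif in capitals, as examples of the letters in their surroundings. The other 6 of the 7 YY1 matches began 22 to 35 bases after the start, and NRF1 matches lay as far as -240 (Atp5l).
Cycs (NRF1, chr6:50566611-50566640, minus strand, from base -60): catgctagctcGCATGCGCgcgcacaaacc
Sdhb (NRF1, chr4:140961206-140961235, plus strand, from base -54): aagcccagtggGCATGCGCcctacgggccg
Ndufa8 (NRF1, chr2:36049328-36049357, minus strand, from base -8): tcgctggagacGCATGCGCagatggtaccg
Atp5j (YY1, chr16:84835045-84835074, minus strand, from base -88): aagtgtaggaAAGATGGCGgagtcttagct

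The difference between members with and without these letters was not tested. The median change in translation level was -0.96 in the 22 with any motif and -0.82 in the 46 tested without, and the median change in monosomes was 0.13 and -0.09. Both groups spanned positive and negative values, from -2.29 to 1.09 and from -2.28 to 0.94 in translation level.

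Other genes of mitochondria were taken from lists for comparison, to be read against the 8.81% lower and 6.29% higher of all genes tested. Of 46 assembly factors of the respiratory chain, 8 were lower in translation level and 1, Bcs1l, was higher (median -0.44). Among those lower were Coa6 (-2.26), Sdhaf4 (-1.75) and Cox14 (-1.53), small factors of complexes IV, II and IV. Of 19 enzymes of the tricarboxylic acid cycle and pyruvate dehydrogenase, 0 were lower and 2 were higher (median 0.52), among them citrate synthase Cs (1.97). Of 13 transcriptional regulators of respiratory genes, 2 were lower (Tfam, -1.36, and Ppard, -1.43) and 1 was higher (Ppargc1b, 1.55), and Nrf1 itself was at -0.68. Of 77 genes for mitochondrial ribosomal proteins, 23 were lower and 0 higher (median -0.71), and of 81 genes for cytosolic ribosomal proteins, 7 were lower and 4 higher (8.64% and 4.94%, median 0.12), shares close to those of all genes. The levels of these 81 genes did change between genotypes. In KO monosomes 56 were lower and 1 higher (median -1.19), against 9.63% and 8.43% of all genes in that comparison. In KO high polysomes 47 were lower and 1 higher (median -1.1), against 17.9% and 15.1%.

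The mitochondrially encoded subunits gave a contrast, since they are translated inside mitochondria and not on cytosolic ribosomes. Of 7 tested, all were lower in high polysomes than in monosomes in both genotypes, with medians of -4.23 in WT and -3.34 in KO cells. Their changes in translation level between genotypes ranged from 0.46 to 0.89, and none of these was called. In KO monosomes mt-Nd6 was called lower (-1.04), against 9.63% of all genes. For the low polysome to monosome ratio mt-Nd4 was called higher (1.0), against 1.23%.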

How the data were processed

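RNA from 18 gradient fractions (6 groups of 3 libraries) was sequenced by a 3′ end method, with single-end reads of 50 bases. Values deposited by the authors are whole-number counts for each gene, not normalized. Per the labels and the study's methods, the authors trimmed reads with cutadapt 1.14, aligned them to mm10 with STAR 2.5.3a, kept unique alignments and counted by strand with featureCounts 1.5.3. No step on molecular identifiers was stated. The gene length that the authors deposited beside the counts was not used. Unique alignment leaves genes with near-identical copies under-counted.

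The filter kept genes that reached 3 CPM in 3 or more libraries, without 92 spike-in rows, and these were fitted with limma-voom (limma 3.58.1, R 4.3.3) on TMM-scaled counts (edgeR 4.0.16), with 1 mean per group and no block. Changes of a ratio are interaction terms. Tests are two-sided, adjusted by Benjamini-Hochberg over all 12851 genes. Thresholds are those the study gave for another comparison of cells. Per-gradient ratios use a prior count of 2 and join fractions of a genotype with the same number, since the study collected all fractions from each sample. Their deviations from the group means correlated weakly (0.0317 to 0.135). Between genotypes a shared number was not taken as a pair. In simulated counts over the same 12851 genes, changes in translation level were set only in genes with a mean count of 50 or more. Among these, 95% of changes of 1.5 and 99% of changes of 2 (log2) were recovered, and 0.292% of unchanged genes were called. Recovery of changes nearer to the fold threshold, or in genes of lower count, was not measured. CDS and UTR lengths come from GENCODE M21 (GRCm38), as the principal or the longest coding transcript. The share of 3′ windows is that of 50-base windows in the last 300 bases of a transcript found in other genes' transcripts.

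The members, gene lists and tests were chosen with earlier results of these data known. Named genes are 12 lead subunits, up to 6 members each way in translation level and 4 each way per fraction with the largest called change and a mean count of 50 or more, the paralogue families and Dgcr8. Alternatives were edgeR, DESeq2 1.42.0, other scalings and filters, no fold threshold, only the libraries compared, a replicate block, a trend on CDS length and leaving out each gradient. Some single-gene values are not reported here.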

Additional observations from a re-analysis of the deposited data

Results flagged for a closer look

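The high polysome to monosome ratio of 31 members differed between the genotypes by the test of the interaction itself, 30 lower and 1 higher in KO cells, against 8.81% and 6.29% of all genes tested.

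Ndufb1-ps, annotated as a noncoding transcript on chromosome 12 (101968090 to 101977068 on GRCm38, minus strand) and left out by the rule on names, nevertheless held 6215 reads, 62 to 729 per library. Its level was 285, 249 and 250 CPM in WT and 252, 222 and 230 CPM in KO monosomes, and 48.4, 54.4 and 40.1 against 28.1, 19.3 and 18.4 CPM in high polysomes. It was called lower in KO low polysomes (log2 change -1.26, SE 0.13, limma adjusted p = 9.72e-11) and high polysomes (-1.15, SE 0.18), and its change in translation level was -0.99 (SE 0.22, adjusted p = 5.67e-04).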

How the results depend on the processing

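With total counts in place of TMM scaling, the median change in translation level over all genes moved by -0.329, that of the members to -1.16, and 51 members were called, 0 higher and 51 lower, with 11 called for the high to low polysome ratio. Uqcrc1 was then at -0.19. With a trend on CDS length removed, the median of the members was 0.05. Without a fold threshold, 64 members were called in translation level (28.2% of all genes), 46 when low polysomes were set against monosomes (11.4%), 33 when high were set against low polysomes (17.8%), 40, 62 and 72 in the monosome, low and high polysome comparisons (37.3%, 52.3% and 60.7%), and 63 in the translation level of WT cells (54.0%). edgeR, DESeq2 and the replicate block each called the same 31 members in translation level. Leaving out 1 gradient gave 28 to 38 members in translation level (median -0.94 to -0.74), 23 to 33 for the low polysome to monosome and 3 to 7 for the high to low polysome ratio, 3 to 4, 25 to 28 and 38 to 44 in the monosome, low and high polysome comparisons, and 36 to 40 and 53 to 59 in the translation level of WT and KO cells. Ndufa4l2 ranged from -0.67 to 0.01 in translation level, the latter without KO replicate 2. The cause of these changes was not tested. With the replicate block, 31 members were called in translation level, 28 and 5 for the steps from monosomes to low and from low to high polysomes, and 43 in the high polysome comparison, and the other counts did not move. Depth limits Cycs, Ndufs5, Atp5g2 and Ndufa4l2, with 345, 331, 120 and 88 reads in all.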

Other observations

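Genes that belong to ATP synthase but carry other symbols were not taken by the rule and were chosen here after their values were seen. Usmg5, a small membrane subunit, and Atpif1, an inhibitor of the enzyme, had changes in translation level of -1.68 and -1.74 in limma, both called lower.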
